A study of Homo sapiens with 24 samples.

Results

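The transcripts of 9 genes of the Notch signalling pathway were followed across 3 triple-negative breast cancer cell lines exposed for 3 h to compounds directed at BET proteins. The genes were the receptors NOTCH1, NOTCH2 and NOTCH3, the ligands JAG1 and JAG2, the receptor-modifying enzyme LFNG and the Notch targets NRARP, HES1 and HEY1. They were taken by symbol from the deposited expression table, and all 9 of the 9 listed symbols were found among its 14114 genes. With BETd-246, a compound that degrades BET proteins, NOTCH1, JAG1, LFNG and NRARP fell in each of the 3 lines. Of all genes, 23.6% were called lower in all 3 with BETd-246. The NOTCH1 fall in MDA-MB-231 was not called after quantile normalization or median-of-ratios scaling. With BETi-211, a BET inhibitor, NOTCH1 and LFNG rose in each line while JAG1 fell in each line. Of all genes, 8.26% were called higher and 19.9% lower in all 3 with BETi-211. The JAG1 fall with BETi-211 in MDA-MB-468 was not called after the same scalings. LFNG differed most between the compounds, at 1.52 and 1.59 FPKM with BETd-246 against 22.5 and 22.2 FPKM with BETi-211 in MDA-MB-468 cells.

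Notch receptors are activated by ligands on a neighbouring cell. Cleavage then frees the intracellular domain of the receptor, which enters the nucleus and joins the DNA-binding protein RBPJ and a MAML coactivator to switch on target genes such as those of the HES and HEY families. Fringe enzymes add sugars to the extracellular part of the receptor and so alter which ligands it responds to. In the breast the pathway takes part in fate choices of mammary epithelial cells, and its receptors can be altered in triple-negative tumours. BET proteins read acetylated chromatin and help RNA polymerase II to transcribe.

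The groups were BETd-246 at 100 nM, BETi-211 at 1000 nM, thalidomide at 1000 nM and DMSO at 0.05%, each in the lines MDA-MB-157, MDA-MB-231, MDA-MB-468. All 12 groups had 2 libraries, which the series describes as biological replicates, 24 in all. Thalidomide binds cereblon, a receptor of a ubiquitin ligase, and the series names thalidomide and DMSO together as controls, so each compound had 4 control libraries in its line. The lines are established mammary tumour lines labelled as basal and as lacking the oestrogen and progesterone receptors and HER2 overexpression. Each is a single line, so differences between lines are differences between these cultures. Levels are in FPKM, which scales fragments by transcript length and by the mapped fragments of the library, a unit inferred from the values. Changes are on the log2(FPKM + 1) scale, which compresses changes of genes at a few FPKM, and most strongly those below about 1 FPKM. Log2 changes at different levels are therefore not comparable as fold changes. A gene was called at an adjusted p below 0.05 in limma.

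FPKM summed to between 454289 and 534179 per library, and the size of the smallest steps gave an estimated depth of 42900000 to 64800000 fragments. Within groups, log2 levels of the 2 libraries correlated at 0.992 to 0.998 across genes. ESR1 and PGR were not among the genes of the table, and ERBB2 lay between 7.17 and 19.5 FPKM. The basal keratin KRT5 had 698.5 to 876.1 FPKM in MDA-MB-468 libraries but at most 0.667 in MDA-MB-157 and 0.00752 in MDA-MB-231. KRT14 and KRT17 reached at most 0.0786 and 0.687 FPKM in that pair of lines. EGFR, also listed as basal, had 10.3 to 10.68 FPKM in MDA-MB-157, 40.75 to 58.45 in MDA-MB-231 and 582.4 to 764.6 in MDA-MB-468. In controls the 6 epithelial markers summed to 461.5 to 482.1 FPKM in MDA-MB-157, 422.1 to 488.7 in MDA-MB-231 and 3842 to 4299 in MDA-MB-468. In all MDA-MB-157 libraries KRT8 had 155.5 to 196.4 and KRT18 279 to 338.3 FPKM, EPCAM at most 1.89, and CDH1, KRT19 and ESRP1 at most 0.533. In MDA-MB-231 KRT19 had 64.99 to 80.27 FPKM, and CDH1 and ESRP1 reached at most 0.198. The mesenchymal filament gene VIM had 1976 to 2299 FPKM in MDA-MB-157, 816.1 to 1030 in MDA-MB-231 and 11.6 to 14.1 in MDA-MB-468. FN1, also listed as mesenchymal, had the same order of lines. ZEB1 instead had 5.82 to 7.01 FPKM in MDA-MB-157, 18.9 to 26.7 in MDA-MB-231 and at most 0.1095 in MDA-MB-468. CDH2 had 21.6 to 26.1 FPKM in MDA-MB-157 and at most 0.352 in the other lines. SNAI2 had 7.75 to 43.3 FPKM in MDA-MB-157, 1.695 to 13.3 in MDA-MB-231 and at most 0.01985 in MDA-MB-468. MDA-MB-157 libraries also held markers of other cell types. CD14, a monocyte marker and the 1 of 5 immune markers in the table, had 64.9 to 68.1 FPKM with BETd-246 and 53.6 to 58.0 with BETi-211 there, against 50.9 to 59.8 in controls. The 3 of 4 fibroblast markers in the table (LUM, DCN and PDGFRB) summed to 135.5 to 145.4 FPKM with BETd-246 and 111.5 to 112.8 with BETi-211, against 118.1 to 128.3 in controls, and to at most 1.72 FPKM in the other lines. The other marker sums of MDA-MB-157 also lay above controls with BETd-246. Its 6 epithelial markers summed to 526.2 to 537.2 FPKM with BETd-246 and 446.5 to 463.7 with BETi-211, against 461.5 to 482.1 in controls. Its 5 mesenchymal markers summed to 2573 to 2593 FPKM with BETd-246 and 2412 to 2431 with BETi-211, against 2278 to 2308 in controls. Its basal markers summed to 11.3 to 11.32 FPKM with BETd-246, against 10.79 to 11.15. KDR, the 1 of 4 endothelial markers in the table, had 1.13 to 1.14 FPKM with BETd-246 and 3.09 to 3.21 with BETi-211 in MDA-MB-157, against 1.49 to 1.84 in controls. In MDA-MB-231 KDR had 0.625 to 0.628 FPKM with BETd-246 and 1.18 to 1.19 with BETi-211, against 0.727 to 0.901 in controls. In MDA-MB-468 it had 0.332 to 0.379 FPKM with BETd-246 and 0.547 to 0.610 with BETi-211, against 0.431 to 0.585 in controls. Mitochondrial genes took 9.65% to 11.98% of FPKM with BETd-246 and 10.8% to 12.1% with BETi-211 in MDA-MB-157, against 8.02% to 10.4% in controls. In MDA-MB-231 their share was 14.9% to 15.1% with BETd-246 and 13.4% to 14.3% with BETi-211, against 9.79% to 13.99% in controls. In MDA-MB-468 it was 9.55% to 9.74% with BETd-246 and 8.44% to 8.93% with BETi-211, against 7.18% to 8.33% in controls. The BETd-246 shares lay above all controls in the last 2 of these lines, and the BETi-211 shares in MDA-MB-157 and, narrowly, MDA-MB-468. The part of these markers and of the mitochondrial share in the results was not tested. PTPRC, the general leukocyte marker, was not among the genes of the table. A fall in a bulk sample can come from fewer cells with a transcript or from less RNA in each cell, and these cannot be told apart.

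Promoter sequence is shown for HES1, whose promoter is the classical example of RBPJ binding, and for LFNG, the member whose level differed most between the compounds. Of the 9 genes, 8 had an entry in the RefSeq promoter windows on GRCh38.p14, each of 250 bases before to 50 after a start. HEY1 had none, and LFNG had 2. The windows were searched on both strands for the RBPJ site GTGGGAA, its core TGGGAA, the HES-type N-box CACNAG, the E-box CACGTG and the AP-1 motif TGANTCA. The lines below hold the 150 bases before the HES1 start at chr3:194135998-194136147 and 70 bases around the upstream LFNG start at chr7:2512469-2512538. The third line holds the first 60 bases of the downstream LFNG window, at chr7:2517613-2517672. That stretch begins 250 bases before the downstream start at position 2517863 and does not reach it. All are on the plus strand, 5′ to 3′. Capitals mark the core or the full RBPJ site.
HES1: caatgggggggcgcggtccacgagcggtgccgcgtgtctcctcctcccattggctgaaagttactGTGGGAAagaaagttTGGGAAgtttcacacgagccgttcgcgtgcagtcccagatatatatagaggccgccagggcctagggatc
LFNG upstream start: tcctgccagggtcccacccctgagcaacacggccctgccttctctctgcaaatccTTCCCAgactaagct
LFNG downstream start: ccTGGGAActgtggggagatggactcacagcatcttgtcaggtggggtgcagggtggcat

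In the HES1 promoter the full site began at position -85 from the start and contained a core at -84, and a further core began at -70. The full site is present in 6.25% of all 35116 promoter windows, and none of the other matched members had it. The core, present in 24% of windows, occurred once on the opposite strand at position -5 from the upstream LFNG start and once at position -248 from the downstream one. NOTCH1, NOTCH2, NOTCH3, NRARP, HES1 and the downstream LFNG window held an N-box, a motif found in 38.0% of windows. No E-box (7.26% of windows) or AP-1 motif (7.71%) was found in a member's window. These matches describe letters in short windows only.

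**Figure D1:**
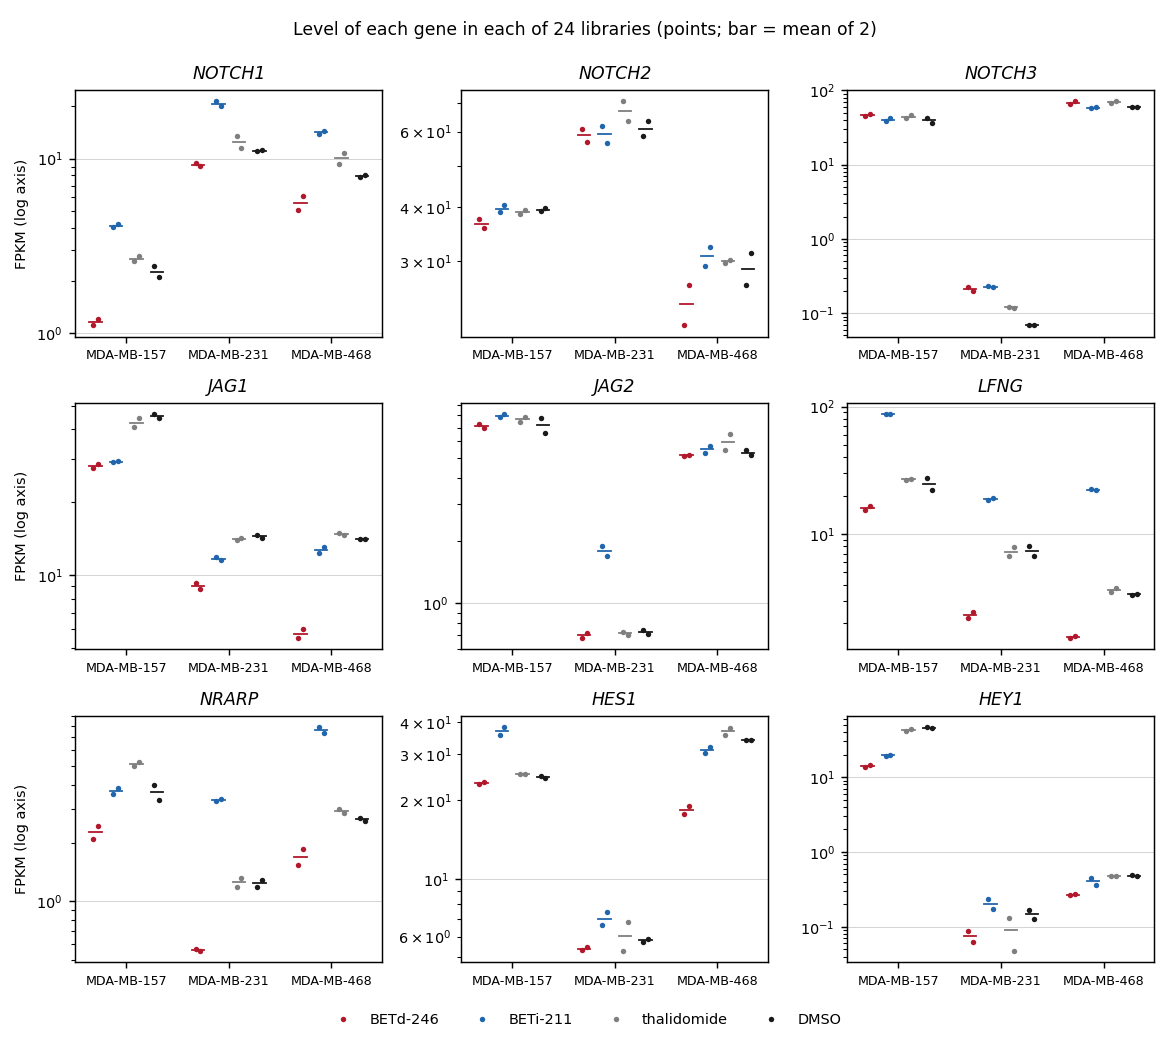
FPKM on a log axis for each of the 9 genes in each of the 24 libraries. Points are libraries, bars are means of 2, and each line's groups run BETd-246, BETi-211, thalidomide and DMSO. LFNG separates BETi-211 from all other libraries in each line, whereas HEY1 and NOTCH3 differ mainly between the lines.

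In control libraries the order of the 9 genes by level differed between the lines. Means and SDs here are over 4 control libraries, and FPKM allows levels to be ranked between genes. In MDA-MB-157 the 4 most abundant were HEY1 at 44.1 ± 2.31, JAG1 at 43.9 ± 2.28, NOTCH3 at 42.2 ± 4.17 and NOTCH2 at 39.3 ± 0.510 FPKM, whose ranges overlapped between neighbours. LFNG at 25.7 ± 2.48 and HES1 at 24.9 ± 0.430 FPKM followed and overlapped, and NOTCH1 was lowest at 2.47 ± 0.285 FPKM. In MDA-MB-231 NOTCH2 led at 64.0 ± 4.94 FPKM, ahead of JAG1 at 14.3 ± 0.235 and NOTCH1 at 11.8 ± 1.13 FPKM without overlap. HEY1 at 0.119 ± 0.0510 and NOTCH3 at 0.0943 ± 0.0297 FPKM were lowest there and overlapped. In MDA-MB-468 NOTCH3 led at 64.3 ± 5.99 FPKM, followed without overlap by HES1 at 35.4 ± 1.77 and NOTCH2 at 29.4 ± 2.13 FPKM, and HEY1 was last at 0.483 ± 0.00603 FPKM.

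Between the control libraries of MDA-MB-157 and MDA-MB-231 all 9 genes were called, 7 higher and 2 lower in MDA-MB-157, beside 87.4% of all genes. Between MDA-MB-468 and MDA-MB-157 all 9 were called, beside 88% of all genes. Between MDA-MB-468 and MDA-MB-231 8 were called, beside 86.2%, and JAG1 was not, with a difference of 0.02 ± 0.03 (SE) and an adjusted p of 0.673. The widest gaps were those of HEY1, 5.33 log2 units higher in MDA-MB-157 than in MDA-MB-231, and of NOTCH3, 5.89 log2 units higher in MDA-MB-468 than in MDA-MB-231. With such shares of all genes called, a call between lines says little about these 9. The CD14 level and the fibroblast markers moved with MDA-MB-157, and their part in its levels was not tested.

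With BETd-246 against the controls of the line, 6 of the 9 genes were called in MDA-MB-157, beside 51.5% of all genes, with 1 higher (19% of all genes) and 5 lower (32.4%). In MDA-MB-231 5 were called, beside 48.1%, with 1 higher (14.8%) and 4 lower (33.3%). In MDA-MB-468 7 were called, beside 53.9%, with 0 higher (20.1%) and 7 lower (33.7%). The median log2 change of the 9 genes was -0.62, -0.12 and -0.49 in that order of lines, beside -0.03, -0.05 and -0.03 over all genes.

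With BETi-211, 6 of the 9 were called in MDA-MB-157, beside 45.8% of all genes, with 3 higher (14.9%) and 3 lower (30.9%). In MDA-MB-231 7 were called, beside 50.1%, with 6 higher (18.7%) and 1 lower (31.4%). In MDA-MB-468 5 were called, beside 53.9%, with 3 higher (21.3%) and 2 lower (32.5%). The median of the 9 was 0.02, 0.22 and -0.03, beside -0.03, -0.03 and -0.01 over all genes. A count near the share of all genes is not a result about these 9, so the sizes of the changes are given gene by gene. Over all genes, both BETd-246 libraries lay below all 4 controls for 37.4%, 38% and 38.1% and above them for 25.4%, 19.9% and 25%. For BETi-211 the shares were 37.3%, 34.4% and 37% below and 22.1%, 22.4% and 27.2% above. The lack of overlap reported for single genes below is to be read beside these shares. The compounds share their control libraries in a line, so their changes against controls are not independent and are given side by side.

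Scaling moved the balance of calls. As deposited, 37%, 30.7% and 37.4% of the BETd-246 calls over all genes were higher in the 3 lines, against 64.7%, 65% and 64.1% after median-of-ratios scaling, which shifted the median of all genes by 0.12 to 0.13 log2 units, and 15.8%, 9.9% and 17.9% after column-total scaling. For BETi-211 the shares were 32.6%, 37.4% and 39.6% as deposited, against 50.5%, 53.6% and 54.4% after median-of-ratios scaling and 23.1%, 25.1% and 26.3% after column-total scaling. Of the BETd-246 minus BETi-211 calls, 52.1%, 42.6% and 46.5% were higher as deposited, against 67.5%, 65.6% and 66% after median-of-ratios scaling.

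**Figure D2:**
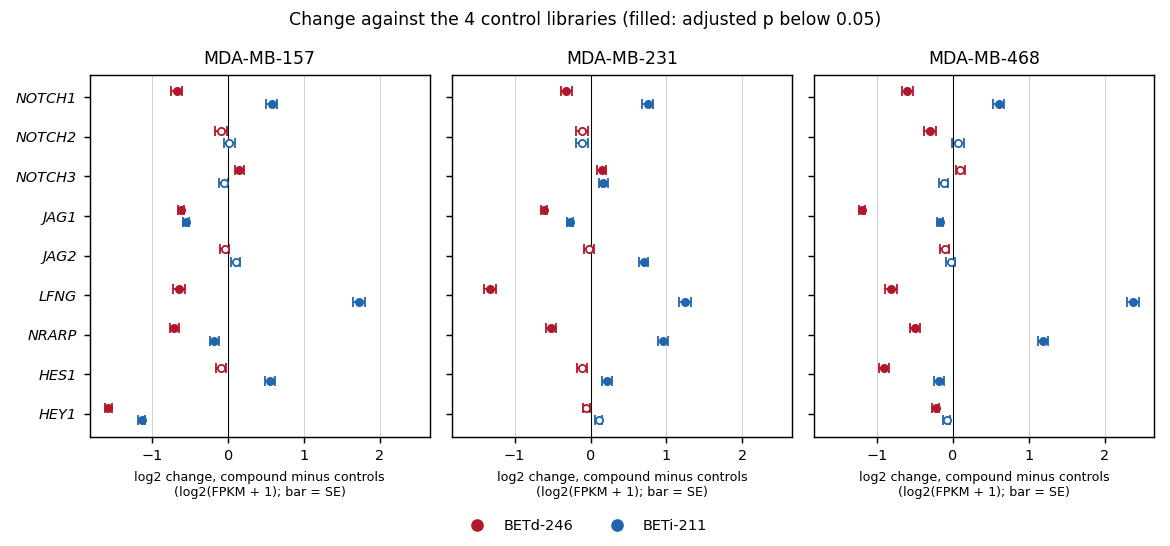
Log2 change of the 9 genes against the 4 control libraries, one panel per line, with BETd-246 in red and BETi-211 in blue. Error bars are SEs and filled points have an adjusted p below 0.05. For LFNG and NOTCH1 the 2 compounds lie on opposite sides of 0 in every panel.

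NOTCH1 (ENSG00000148400.9, chr9:136494433-136545786, minus strand) encodes a receptor that is cut and sent to the nucleus when ligand binds. In MDA-MB-157 it had 1.11 and 1.21 FPKM with BETd-246 and 4.04 and 4.23 with BETi-211, against 2.58 and 2.76 with thalidomide and 2.43 and 2.09 with DMSO. In MDA-MB-231 it had 9.37 and 9.11 FPKM with BETd-246 and 21.2 and 19.9 with BETi-211, against 13.5 and 11.5 with thalidomide and 11.03 and 11.2 with DMSO. In MDA-MB-468 it had 5.09 and 6.09 FPKM with BETd-246 and 13.8 and 14.5 with BETi-211, against 9.27 and 10.8 with thalidomide and 7.87 and 8.10 with DMSO. In every line both BETd-246 libraries lay below all 4 controls and both BETi-211 libraries above them. Of all genes, 37.4%, 38% and 38.1% showed the first of these and 22.1%, 22.4% and 27.2% the second.

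NOTCH1 fell by 0.68, 0.32 and 0.60 log2 units with BETd-246 in the lines in the same order (adjusted p = 7.83e-07, 0.00184 and 2.92e-06, SE 0.07 each). In FPKM its BETd-246 means were 0.470, 0.7835 and 0.621 times the control means. NOTCH1 rose by 0.57, 0.76 and 0.61 log2 units with BETi-211 in the same lines (adjusted p = 6.08e-06, 2.19e-07 and 2.40e-06). The MDA-MB-231 fall was -0.08 after quantile normalization (adjusted p = 0.345) and -0.13 after median-of-ratios scaling (adjusted p = 0.106). An antisense gene, AL592301.1, overlaps NOTCH1, and the kit does not mark the strand, so its reads cannot be told apart from those of NOTCH1.

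NOTCH2 (ENSG00000134250.17, chr1:119911553-120069626, minus strand), a receptor closely related to NOTCH1, gave 1 call against controls. MDA-MB-468 cells had NOTCH2 at 21.2 and 26.3 FPKM with BETd-246 and 29.2 and 32.3 with BETi-211, against 29.8 and 30.1 with thalidomide and 26.3 and 31.2 with DMSO. One BETd-246 library lay below all controls and the other within their range. The change was -0.30 ± 0.08 (SE, adjusted p = 0.00461), and without BETd-246 replicate 1 it was -0.15 with an adjusted p of 0.178. After median-of-ratios scaling it was -0.12 (adjusted p = 0.221). In MDA-MB-157 the change with BETd-246 was -0.10 and in MDA-MB-231 -0.12, neither called, and with BETi-211 it was 0.02, -0.11 and 0.07 across the lines, none called. NOTCH2NL, a near-identical partial copy of NOTCH2, is also in the table at 3.02 to 16.02 FPKM, so fragments may have been divided between the 2 genes and the NOTCH2 levels are uncertain to that extent. With BETd-246 NOTCH2NL changed by -0.44, -0.77 and -0.52 across the lines (adjusted p = 0.0190, 0.000415 and 0.00740).

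NOTCH3 (ENSG00000074181.8, chr19:15159038-15200981, minus strand) is a receptor with a shorter intracellular part. MDA-MB-157 cells had NOTCH3 at 45.2 and 48.0 FPKM with BETd-246 and 38.6 and 42.0 with BETi-211, against 42.2 and 46.8 with thalidomide and 43.2 and 36.7 with DMSO. In MDA-MB-468 it had 66.2 and 71.3 FPKM with BETd-246 and 58.2 and 59.6 with BETi-211, against 67.3 and 71.2 with thalidomide and 59.5 and 59.1 with DMSO. In both lines the BETd-246 libraries overlapped the controls. In MDA-MB-231 it was barely detected, at 0.225 and 0.197 FPKM with BETd-246 and 0.231 and 0.226 with BETi-211, against 0.122 and 0.118 with thalidomide and 0.0683 and 0.0690 with DMSO.

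The BETd-246 calls of NOTCH3 sat at the threshold, at 0.14 in MDA-MB-157 (adjusted p = 0.0494) and 0.15 in MDA-MB-231 (adjusted p = 0.0483). The MDA-MB-157 call was lost without DMSO replicate 2 (0.09, adjusted p = 0.176), thalidomide replicate 1 (0.11, adjusted p = 0.160), BETd-246 replicate 1 (0.19, adjusted p = 0.0640) or BETd-246 replicate 2 (0.10, adjusted p = 0.319) of that line. The MDA-MB-231 call was lost on leaving out any one of the 6 libraries involved, with adjusted p between 0.0612 and 0.216. In MDA-MB-231 NOTCH3 was also called higher with BETi-211, at 0.17 (adjusted p = 0.0247), a call lost without BETi-211 replicate 1 (0.16, adjusted p = 0.106) or replicate 2 (0.17, adjusted p = 0.0990). In FPKM the MDA-MB-231 means were 2.23 times the control mean with BETd-246 and 2.42 times with BETi-211, all 4 libraries lying above the controls, while log2(FPKM + 1) understates changes at such low levels. In MDA-MB-468 neither compound gave a call, but with BETd-246 NOTCH3 was called higher after median-of-ratios scaling (0.28, adjusted p = 0.000179) and against DMSO alone (0.21, adjusted p = 0.0160). With BETi-211 it was called lower there after column-total scaling (-0.20, adjusted p = 0.0105), against thalidomide alone (-0.23, adjusted p = 0.00970) and with the line fitted alone (-0.12, adjusted p = 0.0374).

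JAG1 (ENSG00000101384.11, chr20:10637684-10673999, minus strand) encodes a membrane ligand of the Notch receptors. In MDA-MB-157 it had 27.6 and 28.7 FPKM with BETd-246 and 29.4 and 29.5 with BETi-211, against 40.7 and 44.3 with thalidomide and 46.1 and 44.4 with DMSO. MDA-MB-231 cells had JAG1 at 9.26 and 8.76 FPKM with BETd-246 and 11.8 and 11.54 with BETi-211, against 14.02 and 14.3 with thalidomide and 14.6 and 14.3 with DMSO. MDA-MB-468 cells had JAG1 at 5.50 and 5.99 FPKM with BETd-246 and 12.4 and 13.1 with BETi-211, against 15 and 14.7 with thalidomide and 14.1 and 14.1 with DMSO. Every BETd-246 and BETi-211 library lay below all controls of its line. So did those of 37.4%, 38% and 38.1% of all genes with BETd-246 and of 37.3%, 34.4% and 37% with BETi-211.

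JAG1 fell by 0.62, 0.61 and 1.2 log2 units with BETd-246 in that order of lines (adjusted p = 1.64e-09, 1.97e-09 and 3.10e-13, SE 0.04 each). With BETi-211 it fell by 0.56, 0.27 and 0.17 log2 units (adjusted p = 1.05e-08, 3.33e-05 and 0.00183). The last of these was -0.06 after quantile normalization (adjusted p = 0.201) and -0.09 after median-of-ratios scaling (adjusted p = 0.0553). The antisense gene AL050403.2 overlaps JAG1, and its reads cannot be told apart from those of JAG1.

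JAG2 (ENSG00000184916.8, chr14:105140981-105168824, minus strand), the other Jagged ligand, gave 1 call against controls. In MDA-MB-231 it had 0.679 and 0.721 FPKM with BETd-246 and 1.89 and 1.70 with BETi-211, against 0.727 and 0.705 with thalidomide and 0.742 and 0.709 with DMSO. Both BETi-211 libraries were above all others of the line, and the BETd-246 libraries overlapped the controls. It rose by 0.70 log2 units with BETi-211 there (SE 0.06, adjusted p = 1.06e-07), 2.49 times the control mean in FPKM. In MDA-MB-157 its 8 libraries spanned 6.58 to 8.11 FPKM and in MDA-MB-468 5.12 to 6.51 FPKM, with no call for either compound as deposited. After quantile normalization JAG2 was called higher with BETd-246 in all 3 lines, at 0.18, 0.17 and 0.22 (adjusted p = 0.0138, 0.0205 and 0.00369). With BETd-246 in MDA-MB-468 it was instead called lower after column-total scaling (-0.19, adjusted p = 0.0229) and without thalidomide replicate 1 (-0.16, adjusted p = 0.0321). With BETi-211 in MDA-MB-157 it was called higher after quantile normalization (0.22, adjusted p = 0.00395) and median-of-ratios scaling (0.17, adjusted p = 0.0272). The direction of JAG2 with BETd-246 thus depends on the scaling.

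LFNG (ENSG00000106003.12, chr7:2512529-2529177, plus strand) encodes lunatic fringe, the glycosyltransferase that modifies Notch receptors in the Golgi. MDA-MB-157 cells had LFNG at 15.4 and 16.6 FPKM with BETd-246 and 86.6 and 87.1 with BETi-211, against 26.7 and 26.9 with thalidomide and 27.3 and 22.02 with DMSO. MDA-MB-231 cells had LFNG at 2.19 and 2.44 FPKM with BETd-246 and 18.3 and 19.1 with BETi-211, against 6.71 and 7.87 with thalidomide and 8.07 and 6.70 with DMSO. In MDA-MB-468 it had 1.52 and 1.59 FPKM with BETd-246 and 22.5 and 22.2 with BETi-211, against 3.49 and 3.78 with thalidomide and 3.34 and 3.38 with DMSO. In each line all BETd-246 libraries were below, and all BETi-211 libraries above, the whole range of the controls. The shares of all genes were 37.4%, 38% and 38.1% below with BETd-246 and 22.1%, 22.4% and 27.2% above with BETi-211.

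With BETi-211 the mean LFNG level was 3.38, 2.55 and 6.38 times the control mean across the lines. On the log2 scale LFNG rose by 1.72, 1.24 and 2.38 (SE 0.08 each, adjusted p = 4.43e-11, 1.36e-09 and 5.41e-13), ranks 17, 115 and 13 from the highest change of all 14114 genes. With BETd-246 the mean was 0.621, 0.316 and 0.444 times the control mean, and LFNG fell by 0.65, 1.33 and 0.82 log2 units (adjusted p = 2.93e-06, 4.00e-10 and 1.52e-07). These calls held under every alternative that was run. In MDA-MB-468 controls LFNG was low among the 9 genes, rank 7 at 3.5 ± 0.198 FPKM, and with BETi-211 it had rank 4 at 22.3 ± 0.218 FPKM (SD, n = 2).

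NRARP (ENSG00000198435.3, chr9:137300482-137302251, minus strand) is a direct Notch target whose product binds the receptor's intracellular domain and limits its signal. In MDA-MB-157 it had 2.08 and 2.45 FPKM with BETd-246 and 3.56 and 3.85 with BETi-211, against 5.01 and 5.25 with thalidomide and 3.96 and 3.34 with DMSO. In MDA-MB-231 it had 0.568 and 0.553 FPKM with BETd-246 and 3.30 and 3.38 with BETi-211, against 1.19 and 1.32 with thalidomide and 1.18 and 1.29 with DMSO. MDA-MB-468 cells had NRARP at 1.53 and 1.85 FPKM with BETd-246 and 7.92 and 7.41 with BETi-211, against 3.01 and 2.87 with thalidomide and 2.69 and 2.60 with DMSO. BETd-246 libraries were below all controls in each line, and BETi-211 libraries overlapped them in MDA-MB-157 but were above them in each of the other lines.

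NRARP has a single annotated transcript of 1770 bases, so its FPKM could be turned into fragments with the estimated depth. The lowest pair was about 50 and 59 fragments in MDA-MB-231 with BETd-246, against about 110 and 129 with thalidomide and 108 and 125 with DMSO. NRARP fell by 0.71, 0.52 and 0.49 log2 units with BETd-246 across the lines (SE 0.06 each, adjusted p = 9.90e-08, 3.68e-06 and 6.11e-06). In FPKM its BETd-246 means were 0.516, 0.450 and 0.6065 times the control means, so on that scale the fall was largest in MDA-MB-231. With BETi-211 NRARP rose by 0.95 in MDA-MB-231 cells and by 1.19 in MDA-MB-468 cells (adjusted p = 3.31e-09 and 1.57e-10), ranks 216 and 137 from the highest change. Its BETi-211 means in these lines were 2.68 and 2.745 times the control means.

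In MDA-MB-157 NRARP was called lower with BETi-211, at -0.18 (adjusted p = 0.0284), and its direction there depended on the controls. Against DMSO alone the change was 0.02. The call was lost without DMSO replicate 1 (-0.13, adjusted p = 0.0952), thalidomide replicate 2 (-0.17, adjusted p = 0.0726) or BETi-211 replicate 1 (-0.14, adjusted p = 0.233) of that line. The same line gave the 1 call among the 9 genes for thalidomide against DMSO, NRARP at 0.40 ± 0.07 (SE, adjusted p = 0.0436), beside 0.184% of all genes (0.113% higher and 0.0709% lower). That call was lost without DMSO replicate 2 (0.30, adjusted p = 0.491), thalidomide replicate 1 (0.43, adjusted p = 0.233) or thalidomide replicate 2 (0.37, adjusted p = 0.282). In each of the other lines limma called 0 of the 9 genes for thalidomide, beside 0% of all genes. An unadjusted p below 0.05 in limma was reached by 2 of the 9 in MDA-MB-157, beside 2093 of all 14114 genes. In MDA-MB-231 it was reached by 0, beside 766 genes, and in MDA-MB-468 by 2, beside 1980 genes.

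HES1 (ENSG00000114315.3, chr3:194136145-194138732, plus strand) encodes a transcriptional repressor and is the best known Notch target. MDA-MB-157 cells had HES1 at 23.1 and 23.6 FPKM with BETd-246 and 35.5 and 38.2 with BETi-211, against 25.2 and 25.3 with thalidomide and 24.8 and 24.4 with DMSO. MDA-MB-231 cells had HES1 at 5.33 and 5.46 FPKM with BETd-246 and 6.63 and 7.44 with BETi-211, against 5.28 and 6.84 with thalidomide and 5.72 and 5.88 with DMSO. In MDA-MB-468 it had 17.8 and 19.04 FPKM with BETd-246 and 30.4 and 32.0 with BETi-211, against 35.7 and 37.8 with thalidomide and 34.1 and 34.1 with DMSO. The BETi-211 libraries were above all controls in MDA-MB-157, overlapped them in MDA-MB-231, and were below them in the line MDA-MB-468.

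HES1 fell by 0.91 log2 units with BETd-246 in MDA-MB-468 (SE 0.07, adjusted p = 5.62e-09), while the changes of -0.09 in MDA-MB-157 and -0.11 in MDA-MB-231 were not called (adjusted p = 0.265 and 0.183). Without thalidomide replicate 1 the MDA-MB-231 change was -0.19 and called (adjusted p = 0.00304). After column-total scaling HES1 was called lower in both lines, at -0.18 in MDA-MB-157 and -0.20 in MDA-MB-231 (adjusted p = 0.0231 and 0.0159), whereas after quantile normalization it was called higher in MDA-MB-231, at 0.17 (adjusted p = 0.0400). With BETi-211 it rose by 0.55 in MDA-MB-157 (adjusted p = 4.04e-06). Its BETi-211 call of 0.22 in MDA-MB-231 (adjusted p = 0.0125) was lost without BETi-211 replicate 2 (0.14, adjusted p = 0.201). Its BETi-211 call of -0.18 in MDA-MB-468 (adjusted p = 0.0326) was lost without DMSO replicate 1 (-0.18, adjusted p = 0.0593), DMSO replicate 2 (-0.18, adjusted p = 0.0582), thalidomide replicate 2 (-0.16, adjusted p = 0.0842), BETi-211 replicate 1 (-0.14, adjusted p = 0.208) or BETi-211 replicate 2 (-0.21, adjusted p = 0.0637). It was also lost after quantile normalization (-0.15, adjusted p = 0.0753) and median-of-ratios scaling (-0.10, adjusted p = 0.215).

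HEY1 (ENSG00000164683.16, chr8:79764010-79767863, minus strand) encodes a repressor related to HES1. In MDA-MB-157 it had 13.7 and 14.4 FPKM with BETd-246 and 19.3 and 19.6 with BETi-211, against 41.1 and 43.6 with thalidomide and 46.6 and 45.0 with DMSO. All 4 libraries of the compounds lay far below the controls, without overlap, and those of BETd-246 below those of BETi-211. HEY1 fell by 1.58 log2 units with BETd-246 and by 1.14 with BETi-211 in that line (SE 0.04 each, adjusted p = 8.61e-14 and 9.85e-12), ranks 130 and 67 from the lowest change of all genes.

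In the other lines HEY1 stayed below 0.5 FPKM. MDA-MB-468 cells had HEY1 at 0.266 and 0.273 FPKM with BETd-246 and 0.446 and 0.363 with BETi-211, against 0.480 and 0.484 with thalidomide and 0.491 and 0.477 with DMSO. The BETd-246 libraries were the lowest, and the fall of 0.22 log2 units was called (adjusted p = 0.000527), while the BETi-211 change of -0.08 was not (adjusted p = 0.152). In MDA-MB-231 HEY1 had 0.0873 and 0.0629 FPKM with BETd-246 and 0.237 and 0.170 with BETi-211, against 0.133 and 0.0472 with thalidomide and 0.168 and 0.127 with DMSO. Both BETi-211 libraries lay above all controls, at 1.72 times their mean, and the BETd-246 libraries overlapped them. Neither compound gave a call. The BETi-211 change of 0.11 was called higher with a pseudocount of 0.1 (0.50, adjusted p = 0.00842), after median-of-ratios scaling (0.12, adjusted p = 0.0260), against thalidomide alone (0.14, adjusted p = 0.0325), with no variance trend (adjusted p = 0.0448) and without thalidomide replicate 1 (0.14, adjusted p = 0.0194).

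Set directly against each other, BETd-246 at 100 nM and BETi-211 at 1000 nM differed in 6 of the 9 genes in MDA-MB-157, beside 46.5% of all genes, with 1 higher with BETd-246 (24.2% of all genes) and 5 lower (22.3%). In MDA-MB-231 7 differed, beside 41.7%, with 0 higher (17.8%) and 7 lower (23.9%). In MDA-MB-468 8 differed, beside 43.3%, with 1 higher (20.1%) and 7 lower (23.2%). The median of the 9 genes was -0.44, -0.34 and -0.73, beside 0.04, 0.01 and 0.02 over all genes. The doses differ, so a difference between the compounds cannot be told apart from one between these doses.

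LFNG was lower with BETd-246, with log2 differences of -2.37, -2.57 and -3.19 (SE 0.09 each, adjusted p = 2.73e-12, 1.23e-12 and 6.74e-14), ranks 19, 11 and 2 from the lowest of all 14114 genes. NRARP differed by -0.53, -1.48 and -1.69 and NOTCH1 by -1.25, -1.07 and -1.2, all called lower with BETd-246 (largest adjusted p 2.31e-05).

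**Figure D3:**
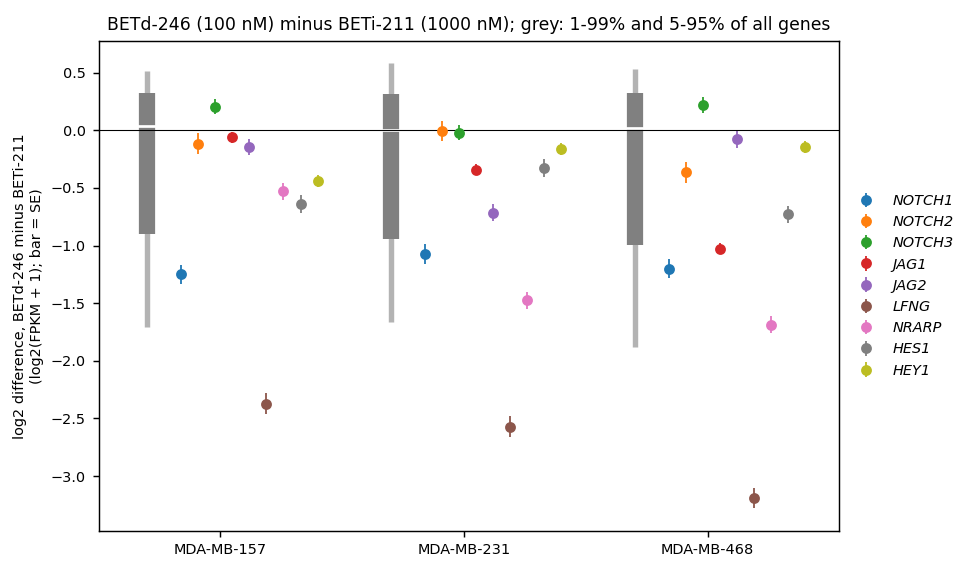
Log2 difference of BETd-246 minus BETi-211 for the 9 genes in each line, with SEs, beside grey bars for the central 90% (thick) and 98% (thin) of all genes and a white tick at their median. LFNG lies below the thin bar in all 3 lines, and NRARP and NOTCH1 lie below 0 in all 3.

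HES1 was lower with BETd-246 than with BETi-211 in every line, by differences of -0.64, -0.33 and -0.73 (adjusted p = 4.59e-06, 0.00252 and 8.28e-07), and after quantile normalization the MDA-MB-231 difference was -0.14 (adjusted p = 0.160). HEY1 differed by -0.44 in MDA-MB-157 (adjusted p = 3.63e-06). Its calls of -0.16 in MDA-MB-231 (adjusted p = 0.0189) and -0.15 in MDA-MB-468 (adjusted p = 0.0329) concern levels below 0.5 FPKM. The MDA-MB-231 call was lost without BETi-211 replicate 1 (-0.12, adjusted p = 0.162) or BETd-246 replicate 2 (-0.15, adjusted p = 0.104). The MDA-MB-468 call was lost without BETi-211 replicate 1 (-0.10, adjusted p = 0.234), BETd-246 replicate 1 (-0.14, adjusted p = 0.114) or BETd-246 replicate 2 (-0.15, adjusted p = 0.0911), and after quantile normalization it was -0.05 (adjusted p = 0.493).

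Among the ligands, JAG1 was lower with BETd-246 than with BETi-211, by -0.34 in MDA-MB-231 cells and -1.03 in MDA-MB-468 cells (adjusted p = 1.70e-05 and 2.15e-11). In MDA-MB-157 its difference of -0.06 was not called, with a 95% interval of -0.16 to 0.04. JAG2 differed by -0.72 in MDA-MB-231 (adjusted p = 5.60e-07), with intervals of -0.30 to 0.01 in MDA-MB-157 and -0.23 to 0.07 in MDA-MB-468. For NOTCH2 the difference was -0.36 in MDA-MB-468 (adjusted p = 0.00395), lost without BETi-211 replicate 2 (-0.29, adjusted p = 0.0543) or BETd-246 replicate 1 (-0.22, adjusted p = 0.0898), and its intervals were -0.31 to 0.08 in MDA-MB-157 and -0.20 to 0.19 in MDA-MB-231.

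NOTCH3 alone was called higher with BETd-246 than with BETi-211, by 0.21 in MDA-MB-157 (adjusted p = 0.0199) and 0.22 in MDA-MB-468 (adjusted p = 0.0147). The first call was lost without BETi-211 replicate 1 (0.15, adjusted p = 0.181) or BETd-246 replicate 2 (0.16, adjusted p = 0.148), and the second without BETi-211 replicate 1 (0.20, adjusted p = 0.0805) or BETd-246 replicate 2 (0.17, adjusted p = 0.135). In MDA-MB-231 the interval was -0.16 to 0.12. Both called differences were below 0.3 log2 units.

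The effects of the compounds were also compared between lines. For BETd-246, 3 of the 9 effects were called in each comparison, with 1 positive and 2 negative differences. The share of all genes called was 11.2% for MDA-MB-157 minus MDA-MB-231 (6.23% positive and 5.01% negative), 13.3% for MDA-MB-468 minus MDA-MB-231 (4.82% and 8.45%) and 13.1% for MDA-MB-468 minus MDA-MB-157 (4.02% and 9.06%). For BETi-211 6 were called for MDA-MB-157 minus MDA-MB-231 (2 positive, 4 negative), beside 16.5% of all genes (7.53% and 9%). For MDA-MB-468 minus MDA-MB-231 5 were called (1 positive, 4 negative), beside 21.9% (8.95% and 13%). For MDA-MB-468 minus MDA-MB-157 5 were called (4 positive, 1 negative), beside 21.6% (9.52% and 12.1%).

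HES1 fell further with BETd-246 in MDA-MB-468, by a difference of -0.80 from MDA-MB-231 and -0.82 from MDA-MB-157 (adjusted p = 1.62e-05 and 1.33e-05). JAG1 likewise differed by -0.59 and -0.58 (adjusted p = 2.02e-06 and 2.45e-06). The BETi-211 effect on NRARP differed by -1.13 for MDA-MB-157 minus MDA-MB-231 and by 1.37 for MDA-MB-468 minus MDA-MB-157 (adjusted p = 2.07e-07 and 1.83e-08). The BETd-246 effect on HEY1 differed by -1.52 for MDA-MB-157 minus MDA-MB-231 (adjusted p = 2.24e-10), where its level in the other line was near 0.

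The rest of the pathway was described with 80 further genes in 6 lists by role, of which 65 are in the table. For single genes among them the only alternative run was leaving out libraries, so how their calls depend on scaling was not tested. With BETd-246, 13 were higher and 18 lower by the test in MDA-MB-157, 7 higher and 17 lower in MDA-MB-231, then 14 and 22 in MDA-MB-468. The shares of all genes were 19% higher and 32.4% lower, 14.8% and 33.3%, then 20.1% and 33.7%. With BETi-211, 10 were called higher and 27 lower in MDA-MB-157, 11 and 25 in MDA-MB-231, then 11 and 31 in MDA-MB-468. Of all genes 14.9% were higher and 30.9% lower, 18.7% and 31.4%, then 21.3% and 32.5%. The median change of the 65 lay between -0.01 and 0.01 for BETd-246 and between -0.11 and -0.08 for BETi-211, against -0.05 to -0.03 and -0.03 to -0.01 over all genes.

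**Figure D4:**
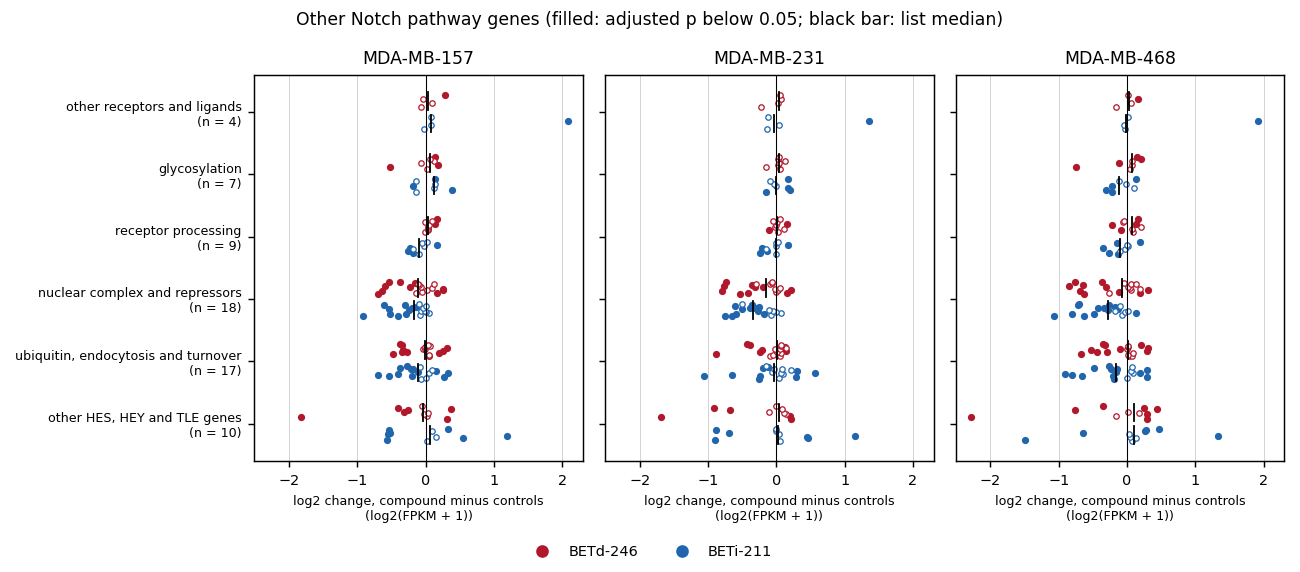
Log2 change against controls of the 65 other pathway genes, grouped by role, with BETd-246 in red and BETi-211 in blue and 1 panel per line. Filled points have an adjusted p below 0.05 and black bars are list medians. The point far to the right among the receptors and ligands is DLL4 with BETi-211, and the leftmost among the HES, HEY and TLE genes is BHLHE40 with BETd-246.

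Among the 4 measured other receptors and ligands, DLL4, a Delta-type ligand, was called in every line with BETi-211. It averaged 0.386 ± 0.0361 FPKM with BETd-246 and 5.04 ± 0.160 with BETi-211 in MDA-MB-157, against 0.425 ± 0.0556 in controls (SD, n = 2, 2 and 4). In MDA-MB-231 it averaged 0.147 ± 0.00664 FPKM with BETd-246 and 1.82 ± 0.171 with BETi-211, against 0.100 ± 0.0336 in controls. In MDA-MB-468 it averaged 0.198 ± 0.0403 FPKM with BETd-246 and 3.08 ± 0.165 with BETi-211, against 0.0761 ± 0.0123 in controls. DLL4 rose with BETi-211 by 2.08, 1.36 and 1.92 log2 units (adjusted p = 7.79e-14, 2.22e-12 and 4.40e-14). At such low control levels log2(FPKM + 1) understates the changes and does not keep their order between lines. The ratio of the means in FPKM was largest in MDA-MB-468 and smallest in MDA-MB-157. With BETd-246 the changes were -0.04, 0.06 and 0.15, the last of them called (adjusted p = 0.0138) but not without BETd-246 replicate 2 (0.12, adjusted p = 0.138). The differences of BETd-246 minus BETi-211 for DLL4 were -2.12, -1.3 and -1.77, all called. DLL3, DLK2 and MFAP2 were not called with BETi-211, and MFAP2, which encodes a microfibril protein, rose by 0.29 with BETd-246 in the line MDA-MB-157.

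The 7 measured glycosylation genes gave 3, 0 and 4 calls with BETd-246 and 3, 4 and 4 with BETi-211, beside 51.5%, 48.1% and 53.9% of all genes with BETd-246 and 45.8%, 50.1% and 53.9% with BETi-211. The 9 genes of receptor processing gave 2, 2 and 4 calls with BETd-246, beside the same shares. Over all genes, 32.2% were called the same way with BETd-246 in all 3 lines, 8.59% higher and 23.6% lower, and no glycosylation gene was. Among the receptor processing genes, NCSTN, a subunit of the gamma-secretase that cuts the receptor, was called higher in all 3, by 0.13, 0.15 and 0.13 log2 units. These changes are about the size of the 0.12 to 0.13 by which median-of-ratios scaling shifted the median of all genes. Other scalings were not run for NCSTN. Among the 18 genes of the nuclear complex and its repressors, 7 were called the same way with BETd-246 in all 3 lines, 5 lower and 2 higher, beside that 32.2% of all genes. MAML1, the coactivator that completes the RBPJ complex, fell by 0.60, 0.77 and 0.85 log2 units with BETd-246 and by 0.20, 0.32 and 0.43 with BETi-211. EP300, an acetyltransferase recruited by that complex, fell by 0.64, 0.80 and 0.69 with BETd-246 and by 0.53, 0.59 and 0.81 with BETi-211. SPEN, a corepressor that binds RBPJ, fell by 0.53, 0.74 and 0.76 with BETd-246 (adjusted p = 0.0437, 0.00872 and 0.00583). With BETi-211 it fell by 0.71 in MDA-MB-468 (adjusted p = 0.00931), and the changes of -0.11 in MDA-MB-157 and -0.50 in MDA-MB-231 were not called (adjusted p = 0.726 and 0.0590). In MDA-MB-231 SPEN had 3.33 and 3.90 FPKM with BETd-246 and 4.66 and 4.204 with BETi-211, against 12.8 and 4.67 with thalidomide and 5.69 and 5.62 with DMSO. Thalidomide replicate 1 of that line thus stood far above the other controls. Without it the SPEN changes in MDA-MB-231 were -0.42 with BETd-246 and -0.18 with BETi-211, both called (adjusted p = 0.000104 and 0.0366), a leave-out chosen after seeing the data, and the MDA-MB-157 change with BETd-246 kept its call (adjusted p = 3.18e-06). Leaving out any library other than the 2 thalidomide libraries of MDA-MB-231 ended that MDA-MB-157 call (adjusted p 0.0511 to 0.179). Without BETd-246 replicate 1 the BETd-246 calls of SPEN were lost in MDA-MB-231 (-0.65, adjusted p = 0.0871) and, leaving out that of its own line, in MDA-MB-468 (-0.69, adjusted p = 0.0613). The MDA-MB-468 call with BETi-211 was lost without either BETi-211 library (-0.71 each). The MDA-MB-231 change with BETi-211 was -0.82 without thalidomide replicate 2. That setting leaves the high replicate 1 as the only thalidomide library of the line, so its value rests on that library.

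Of the 17 genes of ubiquitin ligation, endocytosis and turnover, 6 were called the same way with BETd-246 in all 3 lines, 5 lower and 1 higher, again beside 32.2% of all genes. DTX2, a Deltex-family ubiquitin ligase, fell by 0.48, 0.89 and 0.67 log2 units with BETd-246 and by 0.54, 1.07 and 0.66 with BETi-211. NEURL1B, a ligase acting on Notch ligands, fell by 0.35, 0.39 and 0.33 with BETd-246 and by 0.38, 0.20 and 0.48 with BETi-211. NUMBL, related to the Notch antagonist NUMB, fell by 0.37, 0.43 and 0.35 with BETd-246.

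Of the 10 other HES, HEY and TLE genes, 3 were called the same way with BETd-246 in all lines, beside 32.2% of all genes. BHLHE40, a repressor of the same basic helix-loop-helix superfamily, averaged 6.16 ± 0.114 FPKM with BETd-246 and 16.2 ± 1.33 with BETi-211 in MDA-MB-157, against 24.5 ± 1.33 in controls. In MDA-MB-231 it averaged 2.14 ± 0.0960 FPKM with BETd-246 and 4.44 ± 0.442 with BETi-211, against 9.12 ± 0.261 in controls. In MDA-MB-468 it averaged 4.63 ± 0.0357 FPKM with BETd-246 and 8.84 ± 1.39 with BETi-211, against 26.6 ± 1.72 in controls. It fell with both compounds in all lines, by 1.83, 1.69 and 2.29 log2 units with BETd-246 and by 0.57, 0.90 and 1.49 with BETi-211. TLE1, a Groucho-type corepressor used by HES proteins, fell by 0.26, 0.69 and 0.77 with BETd-246 and by 0.52, 0.69 and 0.65 with BETi-211. AES, a short relative of TLE1, rose by 0.30, 0.21 and 0.30 with BETd-246.

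The genes whose pattern was most like that of each member were found by Pearson's r over the 12 group means, each centred on its line's controls. This is a description, since the groups share lines and controls. BCL2L11 (r = 0.986) was nearest to NOTCH1, BCORL1 (0.981) to LFNG, WRAP53 (0.973) to NRARP, NET1 (0.979) to JAG1 and CASP9 (0.978) to JAG2. TMEM170B (0.961) was nearest to HES1, MSC (0.987) to HEY1, DAGLB (0.919) to NOTCH2 and MAPK11 (0.951) to NOTCH3. No member was among the 2 genes most like another member.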

How the data were processed

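RNA sequencing libraries were made, per the labels' protocols, from total RNA with an RNA integrity number of at least 8, depleted of ribosomal RNA, with random primers and a TruSeq v2 kit, which does not mark the strand. Reads were handled, per the submitters' processing notes, with Bowtie 0.12.8, bcl2fastq 2.17.1.14 and build GRCh38.p5. The authors deposited 1 table of FPKM values for 14114 genes, and the unit was inferred from the values. Its program and its gene filter: not given in the sources used here. The lowest highest-group mean was 1.219 FPKM. The depth is an estimate from low values of 860 eligible genes, taken as whole fragments within 0.1. Only 9 to 44 such values per library entered it, and 81.8% to 100% of them came within 0.1. No counting interval was computed. FPKM is relative to the library's total, so a change of total RNA per cell would not show.

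Limma 3.58.1 (R 4.3.3) was fitted to log2(FPKM + 1), with 1 coefficient for each of 12 groups, a variance trend, 12 residual and 3.32 prior degrees of freedom, and two-sided Benjamini-Hochberg adjusted p over all 14114 genes (called below 0.05). Every adjusted p and every SE printed comes from this fit or from a named alternative of it. Each compound was set against the averaged DMSO and thalidomide coefficients of its line. The test recovered known changes in simulated data, where normal noise was used and few genes changed, in 1 group. That setting cannot probe the wide changes or the dependence on scaling in these data. The members, lists, motifs and the rule for named genes (all other receptors and ligands, and up to 3 genes per list called the same way with BETd-246 in all lines, by mean absolute change) were chosen with earlier results of these data known. Gene coordinates are 1-based from GENCODE 29 on GRCh38, and promoter sequences are from RefSeq on GRCh38.p14. Alternatives were a pseudocount of 0.1, a filter of a mean of at least 1 FPKM, 3 other scalings, DMSO or thalidomide alone as control, a line fitted alone, no variance trend, a replicate block and leaving out each library, which for the other pathway genes was added after seeing the data. The alternatives other than leaving out a library were not run for single genes of the lists. Not all results for single genes of the lists are printed.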

Additional observations from a re-analysis of the deposited data

Results flagged for a closer look

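One control value stood apart. LFNG had 22.02 FPKM in DMSO replicate 2 of MDA-MB-157, below the other 3 control libraries of the line by more than the range allows for 4 samples, and chance flags about 1 in 20 such groups. Without that library the LFNG calls with BETd-246 and BETi-211 in MDA-MB-157 stood.

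The effect of a compound differed between lines in 25 pairs of a gene and a pair of lines, by the interaction contrast in limma. Values are differences of log2 change against controls, the first line minus the second. For BETd-246 the effects in MDA-MB-157 minus MDA-MB-231 differed by -0.36 for NOTCH1, 0.68 for LFNG and -1.52 for HEY1. Those in MDA-MB-468 minus MDA-MB-231 differed by -0.59 for JAG1, 0.51 for LFNG and -0.80 for HES1. Those in MDA-MB-468 minus MDA-MB-157 differed by -0.58 for JAG1, -0.82 for HES1 and 1.35 for HEY1.

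For BETi-211 the effects in MDA-MB-157 minus MDA-MB-231 differed by -0.29 for JAG1, -0.60 for JAG2, 0.48 for LFNG, -1.13 for NRARP, 0.33 for HES1 and -1.24 for HEY1. Those in MDA-MB-468 minus MDA-MB-231 differed by -0.29 for NOTCH3, -0.73 for JAG2, 1.13 for LFNG, -0.39 for HES1 and -0.19 for HEY1. Those in MDA-MB-468 minus MDA-MB-157 differed by 0.39 for JAG1, 0.65 for LFNG, 1.37 for NRARP, -0.72 for HES1 and 1.06 for HEY1. HEY1 and NOTCH3 are near 0 FPKM in MDA-MB-231 and HEY1 also in MDA-MB-468, where the log2(FPKM + 1) scale compresses changes, and with a pseudocount of 0.1 the HEY1 difference for BETd-246 in MDA-MB-468 minus MDA-MB-157 was 0.98.

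Some of these differences rested on single libraries. The NOTCH1 difference with BETd-246 was lost on leaving out any of 7 libraries (MDA-MB-157 DMSO replicate 1, thalidomide replicate 2 and both BETd-246 replicates, MDA-MB-231 DMSO replicate 1 and both BETd-246 replicates), with values of -0.40 to -0.33 and adjusted p of 0.0515 to 0.132. The BETi-211 difference of HES1 in MDA-MB-157 minus MDA-MB-231 was lost without MDA-MB-157 BETi-211 replicate 2 (0.28, adjusted p = 0.130) or MDA-MB-231 BETi-211 replicate 1 (0.26, adjusted p = 0.143). That of HEY1 in MDA-MB-468 minus MDA-MB-231 was lost without any of 9 libraries (MDA-MB-468 DMSO and thalidomide replicates and BETi-211 replicate 2, MDA-MB-231 DMSO replicates, thalidomide replicate 2 and BETi-211 replicate 1), with values of -0.20 to -0.14 and adjusted p of 0.0533 to 0.229. That of NOTCH3 was lost without MDA-MB-468 BETi-211 replicate 1 (-0.27, adjusted p = 0.0775), MDA-MB-231 BETi-211 replicate 1 (-0.28, adjusted p = 0.0632) or replicate 2 (-0.29, adjusted p = 0.0565).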

How the results depend on the processing

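Each member result was counted once for every setting it was run under. Of the results that were called, leaving out 1 library kept the call in 755 of these counts and lost it in 57. The other settings kept it in 945, lost it in 49 and turned the direction in 1. That 1 was NRARP with BETi-211 in MDA-MB-157, at 0.019 against DMSO alone. Results not called were tallied only for the contrasts of a compound within a line and for the control level of JAG1. Those of thalidomide and of effects between lines were left out, though members gained calls there too. For the BETi-211 effect in MDA-MB-157 minus MDA-MB-231, 5 to 7 members were called on leaving out a library, against 6. Of the tallied results not called, 3 gained a call in the same direction on leaving out a library and 18 under the other settings. Besides those named with NOTCH3, JAG2, HES1 and HEY1 above, these were, with the line fitted alone, NOTCH2 in MDA-MB-157 with BETd-246 (-0.099, adjusted p = 0.0323) and for BETd-246 minus BETi-211 (-0.115, adjusted p = 0.0343), and HEY1 with BETi-211 in MDA-MB-468 (-0.079, adjusted p = 0.0475). The cause of the changes was not tested. The labels do not say what a replicate number shares. Of 18 correlations of deviations between groups of a line, 6 exceeded 0.1 (range -0.207 to 0.335). These values do not settle whether the replicate numbers pair the libraries. With a replicate block the BETd-246 calls of NOTCH3 were lost in MDA-MB-157 (0.14, adjusted p = 0.0659) and MDA-MB-231 (0.15, adjusted p = 0.0645), HEY1 with BETi-211 in MDA-MB-231 gained one (0.11, adjusted p = 0.0469), and the thalidomide calls in MDA-MB-157 went to 0 members, as with a pseudocount of 0.1 and with the line fitted alone, and 0 to 2 on leaving out a library, against 1. For BETi-211 in MDA-MB-468, 3 members were called after quantile normalization and 3 after median-of-ratios scaling, and 4 to 5 on leaving out a library, against 5. For the BETi-211 effect in MDA-MB-468 minus MDA-MB-231 the count was 3 against DMSO alone and 3 to 6 on leaving out a library, and for BETd-246 it was 3 to 5. The other changes of direction concern values not called as deposited, and some were called in the turned direction. After quantile normalization JAG2 with BETd-246 was 0.178, 0.169 and 0.219 across the lines (all called, adjusted p = 0.0138, 0.0205 and 0.00369), HES1 with BETd-246 in MDA-MB-231 0.174 (called, adjusted p = 0.0400), JAG2 with BETi-211 in MDA-MB-468 0.113, and for BETd-246 minus BETi-211 NOTCH3 in MDA-MB-231 0.035 and JAG2 in MDA-MB-468 0.106. After median-of-ratios scaling, with BETd-246, NOTCH2 was 0.058 in MDA-MB-157 and 0.081 in MDA-MB-231, JAG2 0.092, 0.070 and 0.053 across the lines and HES1 0.062 and 0.061 in the first 2 lines. Under it NOTCH3 with BETi-211 in MDA-MB-157 was 0.016 and JAG2 in MDA-MB-468 0.044, and for BETd-246 minus BETi-211 JAG1 in MDA-MB-157 was 0.017, NOTCH2 in MDA-MB-231 0.111, NOTCH3 in MDA-MB-231 0.001 and JAG2 in MDA-MB-468 0.009. After column-total scaling NOTCH2 with BETi-211 was -0.040 in MDA-MB-157 and -0.015 in MDA-MB-468. Against DMSO alone NOTCH3 with BETi-211 was 0.015 in MDA-MB-157 and JAG2 0.046 in MDA-MB-468, and against thalidomide alone NOTCH3 with BETd-246 was -0.011 in MDA-MB-468. The control level of JAG1 in MDA-MB-468 minus MDA-MB-231 was -0.081 after quantile normalization and -0.094 after median-of-ratios scaling (both called, adjusted p = 0.0252 and 0.0133), -0.047 after column-total scaling, -0.033 with DMSO alone and -0.016 with a replicate block. On leaving out a library, JAG2 with BETi-211 in MDA-MB-468 ranged from -0.081 to 0.027, NOTCH2 with BETi-211 from -0.004 to 0.137 in MDA-MB-468 and from -0.010 to 0.042 in MDA-MB-157, JAG2 with BETd-246 from -0.101 to 0.003 in MDA-MB-157 and from -0.036 to 0.001 in MDA-MB-231, and NOTCH2 for BETd-246 minus BETi-211 in MDA-MB-231 from -0.071 to 0.059. Over all genes, thalidomide calls were 26 in MDA-MB-157, 0 to 209 under the other settings, 0 without DMSO replicate 2 and 1026 without DMSO replicate 1. They were 0 in each of the other lines (766 and 1980 at an unadjusted p under 0.05), against 3200 without thalidomide replicate 2 of MDA-MB-231 and 71 without thalidomide replicate 1 of MDA-MB-468. All-gene counts for the BETd-246 effect in MDA-MB-157 minus MDA-MB-231 were 999 to 3119 on leaving out a library, against 1587. Levels near 0 FPKM (HEY1 and NOTCH3 in MDA-MB-231) limit what a change there can show, and 2 libraries a group limit every SE.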
